A study of Mus musculus with 6 samples.

Results

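Gene expression was compared between mouse bone marrow cells carrying the Q741 truncation of CSF3R and cells carrying the W791 truncation, neither with the T618I change. Members were all genes with a usable symbol and 1 FPKM or more in at least 2 of 6 libraries, which kept 11188 of the 23444 rows of the deposited table. FPKM counts fragments per transcript length and sequencing depth. The header of the table names no unit, and its values were read as FPKM. Differences are Q741 minus W791 on the log2(FPKM + 1) scale, so a negative value means a lower level in the Q741 library, and the added 1 shrinks the differences of genes with low values. A gene was called when its difference reached 1, that is 2-fold on this scale. Each side was 1 library, so no difference has a replicate check and no test was made.

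The cells were Kit-positive marrow cells of wild-type C57BL/6 mice, taken with CD117 beads and cultured with mouse SCF, IL-3, IL-6 and FLT3. They were transduced with a retrovirus, sorted as positive by flow cytometry and grown overnight in the same cytokines before RNA was taken. The series holds 6 libraries, 1 for each of a control vector, W791, Q741, T618I, T618I/W791 and T618I/Q741, and its design text classes the truncations alone as non-leukemogenic and the T618I-containing mutants as leukemogenic. No library carried the unmutated receptor. The sources used here do not state the age and number of mice, the viral promoter or the species of the introduced receptor. The labels do not name separate cultures of a construct, so a difference between constructs and a difference between cultures or preparations cannot be told apart.

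CSF3R is the receptor for granulocyte colony-stimulating factor (G-CSF), the cytokine that drives neutrophil production, and it signals through JAK kinases and STAT3 and STAT5. Its cytoplasmic tail carries tyrosines and a motif that serve binding of the inhibitor SOCS3 and receptor internalisation, and stop mutations there shorten the tail. Q741 and W791 name the residues at which the compared receptors stop, 50 residues apart, so the Q741 tail is the shorter. T618I lies outside the tail, next to the membrane, and activates the receptor without ligand. Kit-positive marrow is a mixture of progenitors that gives neutrophils, monocytes, mast cells, basophils, red cells and megakaryocytes in culture. Megakaryocytes are the large marrow cells that shed platelets.

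Mouse Csf3r stood at 53.1 FPKM in the vector library, 52.8 in W791, 56.7 in Q741, 69.4 in T618I, 38.8 in T618I/W791 and 95.9 in T618I/Q741. The truncation libraries thus lay within 0.10 of each other on the log2 scale. Whether fragments of the introduced receptor entered this value is not given, so it does not check the labels. Blood and progenitor markers were present in both: the pan-leukocyte gene Ptprc was at 112 FPKM with W791 and 120 with Q741, Cd34 at 83.3 and 71.3, and Kit itself at 30.1 and 23.3. Depth, estimated from the steps between values, was 20.8 M fragments for W791 and 21.2 M for Q741, and between 20.9 and 43.4 M for the other libraries.

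The Q741 and W791 libraries differed at few genes, and almost all of those were lower in the Q741 library. Of 11188 genes, 75 were lower by 2-fold or more (0.67%) and 5 were higher (0.0447%), while 10204 (91.2%) lay within 1.2-fold. The median difference over all genes was -0.01, with the 1% and 99% points at -0.82 and 0.32. Members of a list of 40 megakaryocyte and platelet genes made up 20 of the 75 lower genes. Another 11 were small RNAs, which mRNA libraries capture poorly, each listed at 0 in the Q741 library. The 64 lower genes that were not small RNAs include the 20 list members. At the threshold, Pdzk1ip1 was just outside at -1.00, and on the other side Snora28 was just outside at 0.87, with Scarna6, listed at 0 with W791 and at 2.46 FPKM with Q741, the next one inside.

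**Figure D1:**
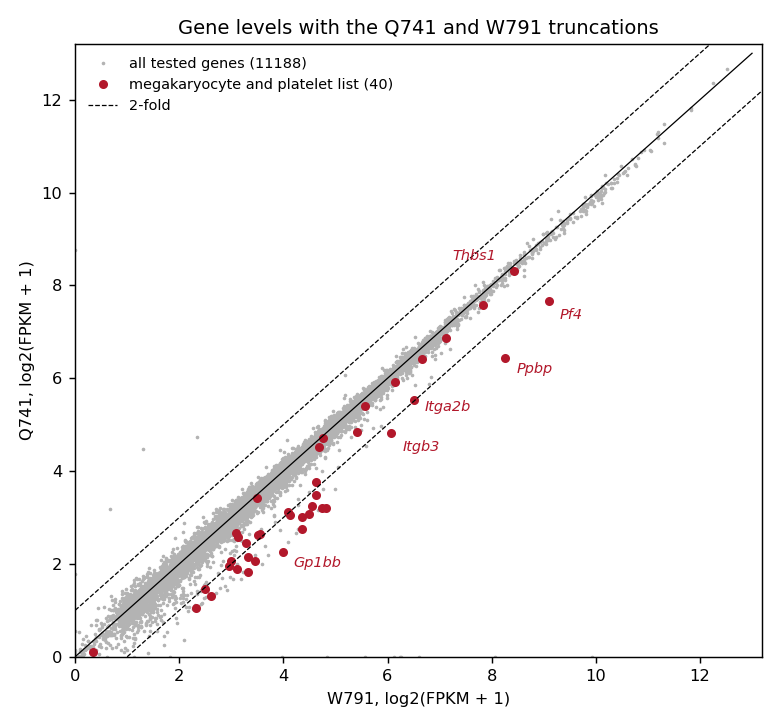
Level of each of 11188 genes in the W791 library (x axis) and the Q741 library (y axis), both as log2(FPKM + 1), with megakaryocyte and platelet genes coloured and dashed lines at a 2-fold difference. The coloured genes all lie below the diagonal, from Fli1 at -0.04 to Ppbp at -1.84, while 91.2% of all genes lie within 1.2-fold of it.

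All 40 genes of the megakaryocyte and platelet list were measured, and all 40 were lower in the Q741 library than in the W791 library. Their median difference was -1.00, against -0.01 over all genes, and 20 of 40 were lower by 2-fold or more, against 0.67% of all genes. The list summed to 2003 FPKM in the vector library, 2378 in W791, 1388 in Q741, 4829 in T618I, 3266 in T618I/W791 and 3864 in T618I/Q741. The Q741 library held the lowest sum of the 6, and it was the lowest library for 31 of the 40 genes, against 8.61% of all genes. The list was drawn up with earlier results of these data known, so its direction is no independent support. In bulk RNA, fewer cells of a type and less of its RNA per cell cannot be told apart. With 5 FPKM added in place of 1 the count of members lower by 2-fold was 10, and at a 3-fold threshold it was 4.

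The lower members with the highest levels, Pf4 and Ppbp, encode chemokines that platelets carry in their alpha granules. Ppbp, the platelet basic protein chemokine, was at 242 FPKM in the vector library, 306 in W791, 85.1 in Q741, 680 in T618I, 417 in T618I/W791 and 472 in T618I/Q741. Its difference of -1.84 was the lowest of the list and rested on about 6266 fragments with W791 and 1773 with Q741. Pf4, platelet factor 4, a chemokine stored with it, was at 409 FPKM in the vector library, 549 in W791, 202 in Q741, 1725 in T618I, 943 in T618I/W791 and 904 in T618I/Q741. Its difference was -1.44. For both genes Q741 was the lowest library, vector lay between the truncations, and the T618I-containing libraries all lay above W791. The genes are neighbours on chromosome 5 of mm10, together with the chemokine gene Cxcl5, chosen after its values were seen, which was at 2.38 FPKM with W791 and 0.439 with Q741 (-1.23).

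Promoters are printed for Pf4 and Ppbp, which had the highest W791 levels among the lower members of the list, and for Gp5, the next in abundance with a promoter in the table used. They run from 250 bases before to 50 bases after the RefSeq start on GRCm38.p6, the build also called mm10, at chr5:90772185-90772484 on the plus strand, chr5:90768268-90768567 on the plus strand and chr16:30310732-30311031 on the minus strand. Capitals mark AGATAA, a motif that GATA factors can bind, and AGGAAG, a motif that ETS factors can bind, on either strand, so that the reverse complements read TTATCT and CTTCCT.
Pf4: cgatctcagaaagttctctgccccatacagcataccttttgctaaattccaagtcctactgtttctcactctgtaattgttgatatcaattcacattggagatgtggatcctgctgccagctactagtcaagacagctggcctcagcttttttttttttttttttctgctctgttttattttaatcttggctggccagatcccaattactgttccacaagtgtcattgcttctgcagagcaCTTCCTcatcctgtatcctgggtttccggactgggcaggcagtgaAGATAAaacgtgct
Ppbp: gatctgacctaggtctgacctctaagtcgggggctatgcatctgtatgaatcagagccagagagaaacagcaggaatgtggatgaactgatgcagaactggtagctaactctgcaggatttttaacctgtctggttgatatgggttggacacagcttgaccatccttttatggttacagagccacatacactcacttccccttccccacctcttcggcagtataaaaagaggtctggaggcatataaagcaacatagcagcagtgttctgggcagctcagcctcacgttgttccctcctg
Gp5: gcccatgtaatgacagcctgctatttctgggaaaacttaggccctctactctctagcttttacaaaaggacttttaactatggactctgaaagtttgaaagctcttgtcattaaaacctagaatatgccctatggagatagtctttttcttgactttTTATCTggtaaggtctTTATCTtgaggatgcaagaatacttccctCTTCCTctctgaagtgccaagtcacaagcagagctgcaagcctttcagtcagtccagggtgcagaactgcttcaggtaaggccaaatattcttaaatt
In the Pf4 window AGATAA began 36 bases after the start and AGGAAG lay on the other strand 9 bases before it, with no overlap. The Gp5 window held AGATAA on the other strand at 93 and 77 bases before the start and AGGAAG at 48. The Ppbp window held neither string. AGATAA occurred in 11.2% and AGGAAG in 35.4% of all 32851 promoters of this length. Counting 1 promoter per gene, 6.4% and 34.2% of 8505 measured genes held them, and of the 26 list members with a promoter 5 held AGATAA and 14 held AGGAAG. A match describes letters and is not a bound site.

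Alpha-granule genes as a group included 6 of 10 past 2-fold, all lower, and their median difference was -1.16. Mmrn1, which encodes the factor V carrier multimerin, was at 9.05 FPKM with W791 and 3.44 with Q741 (-1.18). The gene of the granule selectin, Selp, was at 16.3 FPKM in the vector library, 23.6 in W791, 10.2 in Q741, 59.3 in T618I, 21.9 in T618I/W791 and 19.8 in T618I/Q741, a difference of -1.14 between the truncations. The protease inhibitor gene Serpine2 stood at 19.5 FPKM with W791 and 7.03 with Q741 (-1.35), and Ltbp1, which encodes a binding protein of latent TGF-beta, at 5.13 and 1.46 (-1.32). Genes for clotting proteins carried by platelets did not reach 2-fold, with F5 (factor V) at 16 and 7.64 FPKM (-0.98) and Vwf (von Willebrand factor) at 23.9 and 12.7 (-0.86). Thbs1, for thrombospondin, was nearly level, at 344 FPKM with W791 and 318 with Q741 (-0.11).

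**Figure D2:**
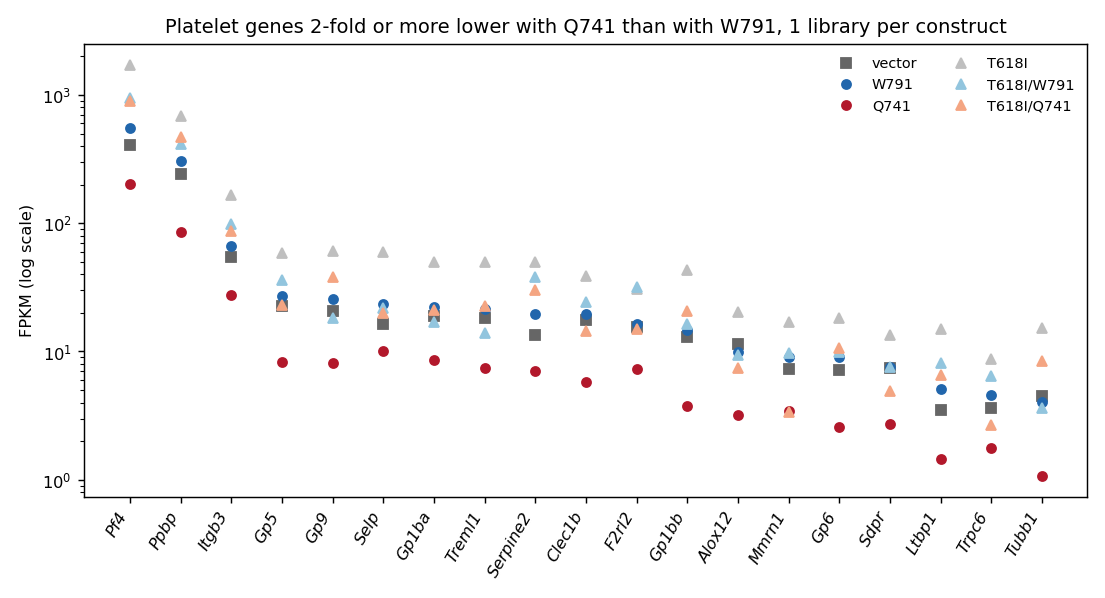
Level in FPKM (log axis) of 19 megakaryocyte and platelet genes lower by 2-fold or more, 1 symbol per gene and library, ordered by their level in W791. The Q741 library is the lowest of the 6 for 18 of the 19, the exception being Mmrn1 (3.44 FPKM, against 3.39 in T618I/Q741), and T618I is the highest for 18, the exception being F2rl2 (30.6 FPKM, against 31.9 in T618I/W791). The genes were picked for a low Q741 level, which in part sets the place of Q741. It was the lowest for 40 of the 55 lower genes not on the list, and for 8.61% of all genes.

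Surface adhesion receptors of platelets had the lowest median of any role, -1.42, with 8 of 11 members lower by 2-fold or more. They include the 4 chains of the receptor for von Willebrand factor. Gp1bb was at 13 FPKM in the vector library, 14.8 in W791, 3.75 in Q741, 43.3 in T618I, 16.3 in T618I/W791 and 20.5 in T618I/Q741 (-1.74). It overlaps another gene, Septin5, so its value is uncertain. Gp5 was at 22.5 FPKM in the vector library, 27.2 in W791, 8.22 in Q741, 59 in T618I, 36 in T618I/W791 and 23.1 in T618I/Q741 (-1.61). Gp9 was at 20.7 FPKM in the vector library, 25.8 in W791, 8.18 in Q741, 61.1 in T618I, 18.2 in T618I/W791 and 38.4 in T618I/Q741 (-1.55). Gp1ba, the chain that binds the ligand, was at 22.3 FPKM with W791 and 8.53 with Q741 (-1.29). For all 4 chains Q741 was the lowest and T618I the highest of the 6 libraries.

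The fibrinogen receptor is a pair of integrin chains. Itgb3, its beta chain, was at 55 FPKM in the vector library, 66.3 in W791, 27.4 in Q741, 167 in T618I, 97.7 in T618I/W791 and 87.5 in T618I/Q741 (-1.24). Itga2b, its alpha chain, was at 78.8 FPKM in the vector library, 90.2 in W791, 44.9 in Q741, 206 in T618I, 100 in T618I/W791 and 99.5 in T618I/Q741, and at -0.99 it did not reach 2-fold. The order of the libraries without T618I was the same for both chains, with W791 above vector and vector above Q741. Among collagen and podoplanin receptors, Gp6 was at 8.99 FPKM with W791 and 2.56 with Q741 (-1.49) and Clec1b, which encodes CLEC-2, at 19.5 and 5.76 (-1.60). Treml1, for a receptor of the alpha-granule membrane, was at 21.6 and 7.44 FPKM (-1.42). Cd9, a tetraspanin gene also used by many other blood cells, was at 226 and 190 FPKM (-0.25).

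Genes for signalling, enzymes and the cytoskeleton had smaller differences. Of 8 receptor and signalling genes, 3 were lower by 2-fold or more, with a median of -0.73. F2rl2, for the thrombin co-receptor PAR3 of mouse platelets, was at 15.6 FPKM in the vector library, 16.4 in W791, 7.34 in Q741, 30.6 in T618I, 31.9 in T618I/W791 and 15 in T618I/Q741 (-1.06). Alox12, the platelet lipoxygenase gene, was at 9.98 FPKM with W791 and 3.19 with Q741 (-1.39), whereas Ptgs1, the gene of cyclooxygenase-1, was at 46.3 and 41 (-0.17). Tubb1, which encodes the tubulin of the platelet's marginal band, was at 4.48 FPKM in the vector library, 4.03 in W791, 1.07 in Q741, 15.2 in T618I, 3.61 in T618I/W791 and 8.43 in T618I/Q741 (-1.28). Trpc6, a cation channel gene, was at 4.62 FPKM with W791 and 1.76 with Q741 (-1.02), and Sdpr, for a protein of membrane caveolae, at 7.62 and 2.71 (-1.22). The other 20 members of the list, none past 2-fold, ran from -0.99 to -0.04.

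None of the 4 transcription factor genes on the list was lower by 2-fold, and their median of -0.39 was the smallest difference of any role. Zfpm1, for the GATA1 partner FOG1, was at 8.79 FPKM with W791 and 4.46 with Q741 (-0.84), and Gfi1b, for a transcriptional repressor that red cell and megakaryocyte differentiation requires, at 7.74 and 4.99 (-0.54). Nfe2, needed for platelet release, was at 70.1 and 59.2 FPKM (-0.24), and Fli1, an ETS factor gene also used by other blood cells, at 26.1 and 25.4 (-0.04). Gata1, which acts in red cells, mast cells and megakaryocytes and stands on the erythroid list, was at 11.6 FPKM in the vector library, 13.1 in W791, 7.22 in Q741, 29.1 in T618I, 35.5 in T618I/W791 and 17.9 in T618I/Q741 (-0.78).

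The vector library places these differences. Against vector, the Q741 library had a median of -0.82 over the list, with 36 of 40 members below 0 and 13 past 2-fold, all lower, where 55.9% of all genes lay below 0 and 0.822% of all genes were lower. The W791 library had a median of 0.20 against vector, with 5 of 40 below 0 and none past 2-fold, where 52.4% of all genes lay below 0, 0.268% were higher and 0.304% lower. These comparisons share the vector library with each other and the truncation libraries with the main one.

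Other lower genes include several known from platelets or megakaryocytes that the list did not hold. Of the 15 lowest genes by the naming rule, 7 were on the list. Ache, for acetylcholinesterase, a classical marker of rodent megakaryocytes, was at 7.27 FPKM in the vector library, 11.1 in W791, 2.99 in Q741, 24.2 in T618I, 11.2 in T618I/W791 and 8.34 in T618I/Q741 (-1.60). Tph1, the enzyme gene for serotonin synthesis that mast cells also use, was at 15.3 FPKM in the vector library, 18.5 in W791, 5.77 in Q741, 126 in T618I, 70.4 in T618I/W791 and 59.4 in T618I/Q741 (-1.53). Timp3, for an inhibitor of metalloproteinases, was at 16.1 FPKM with W791 and 4.58 with Q741 (-1.62), and Clu, for the secreted chaperone clusterin, at 24.2 and 7.89 (-1.50). Gucy1b3, for a subunit of the nitric oxide receptor guanylate cyclase, was at 8.06 and 2.19 FPKM (-1.51). Ly6g6f, for an immunoglobulin family surface protein, was at 12.1 and 3.59 FPKM (-1.51), and Syt13, of the synaptotagmin family, at 6.52 and 1.72 (-1.47). Snhg9, a small nucleolar RNA host gene that overlaps Rps2, was at 17.8 and 5.34 FPKM (-1.57), on about 31 and 9 fragments. Its level in the vector library, 2.25 FPKM, was below both. Chosen after their values were seen, the serotonin transporter gene Slc6a4 was at 11.6 FPKM with W791 and 4.23 with Q741 (-1.27), the neurogranin gene Nrgn at 30.9 and 11.2 (-1.38), and Mrvi1, for a substrate of cGMP-dependent kinase, at 10.3 and 3.19 (-1.43). Timp3, Clec1b, F2rl2 and Ly6g6f overlap other protein-coding genes, and since the use of strand in counting is not stated, reads of overlapping genes may be shared.

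Members of other lists that were lower by 2-fold or more numbered 7 beyond the platelet genes, Tph1 among them. Slamf1, for a receptor of stem cells and lymphocytes, was at 3.96 FPKM with W791 and 1.17 with Q741 (-1.19), and Esam, for an adhesion molecule of stem cells, endothelium and megakaryocytes, at 4.37 and 1.21 (-1.28). The glucose transporter gene Slc2a3 was at 46.8 and 22.2 FPKM (-1.05). The stefin A genes Stfa2l1 and BC100530, for cysteine protease inhibitors, were at 5.53 and 7.66 FPKM with W791 and 1.61 and 2.97 with Q741, and near-identical copies there can share reads. The histone gene Hist1h4c was at 3.47 and 0.984 FPKM (-1.17), and its transcripts lack the poly(A) tail that this library type selects.

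With T618I present, the platelet genes lay near all other genes in the comparison of the same truncations. T618I/Q741 minus T618I/W791, which shares no library with the pair above, had a median of -0.13 over the 40 genes, against -0.12 over all genes. In that pair 25 of 40 lay below 0 (58.1% of all genes), with 4 lower and 3 higher by 2-fold or more, where 7.58% of all genes were lower, 5.88% higher and 13.5% either. The lowest was Gfi1b at -1.46 and the highest Thbs1 at 1.11. Adhesion receptor genes had a median of 0.11 and alpha-granule genes 0.01, while transcription factor genes had -0.65. Of the 75 genes lower with Q741 alone, 17 were also lower in the T618I pair, which is 22.7% of the 75 and 2% of that pair's 848 lower genes. Of the 17, 14 came from the 55 lower genes not on the list. The 17 also include small RNAs listed at 0 with Q741, such as Snord16a, Mir703 and Snora52, so the overlap is uncertain. All 3 T618I-containing libraries lay above Q741 for 35 of the 40 platelet genes, against 14.6% of all genes. That count reuses the Q741 library of the main pair, and the list was drawn up with earlier results known. It is therefore no independent support. Whether the difference between the pairs exceeds the variation between libraries was not tested.

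**Figure D3:**
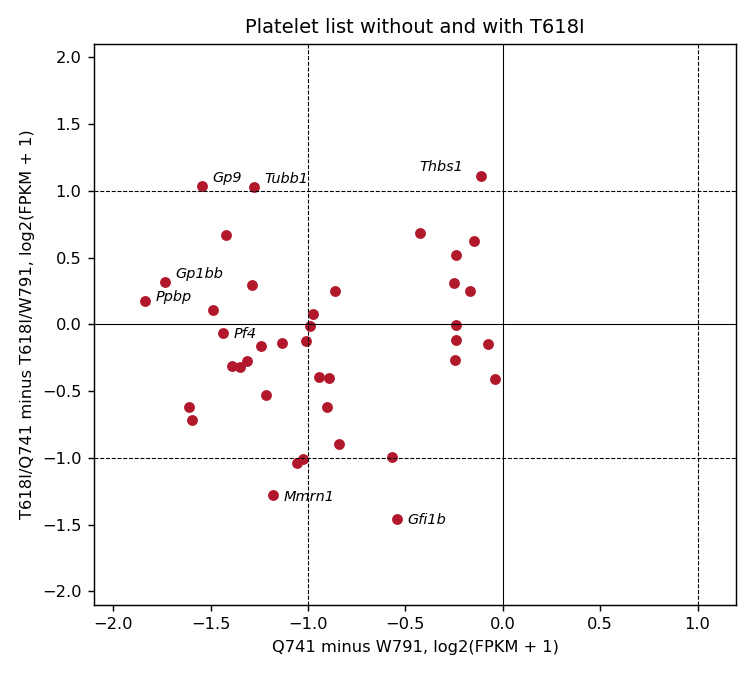
Difference between the truncations for each of the 40 megakaryocyte and platelet genes, without T618I (x axis, Q741 minus W791) and with T618I (y axis, T618I/Q741 minus T618I/W791), both on the log2(FPKM + 1) scale. The points lie left of 0 on the x axis, with a median of -1.00, and on both sides of 0 on the y axis, with a median of -0.13.

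Medians of the marker lists of other blood lineages lay near 0 between the truncation libraries. Erythroid genes had a median difference of -0.10, with 22 of 29 below 0 and none past 2-fold, and the transferrin receptor gene Tfrc was at 77.1 FPKM with W791 and 83.8 with Q741. The lowest member was the erythropoietin receptor gene Epor, at 3.18 and 1.27 FPKM (-0.88). Q741 was the lowest of the 6 libraries for 14 of the 29 erythroid genes, against 8.61% of all genes. Chosen after their values were seen and not on the list, the embryonic globin genes Hba-x and Hbb-y were lower by 2-fold or more, Hba-x at 2.26 and 0.199 FPKM (-1.44) and Hbb-y at 3.55 and 1.12 (-1.10). Both were listed at 0 in the vector library. Neutrophil primary granule genes had a median of -0.02 over 17 genes, with the lysozyme gene Lyz2 at 5892 FPKM with W791 and 6461 with Q741, and the myeloperoxidase gene Mpo at 839 and 801. Secondary and tertiary granule genes had a median of -0.15 over 22 genes, with the calprotectin gene S100a9 at 1110 and 873 FPKM (-0.35) and the lactoferrin gene Ltf at 43.7 and 28.7 (-0.59). Monocyte and macrophage genes leaned the other way, with 26 of 36 above 0 and a median of 0.09, and the cathepsin gene Ctss was at 888 and 960 FPKM. Dendritic cell and MHC class II genes had a median of -0.18, with 21 of 24 below 0, and the invariant chain gene Cd74 was at 899 and 779 FPKM. Progenitor genes had a median of -0.14, with 25 of 30 below 0 and the surface antigen gene Ly6a at 458 and 431 FPKM. Over all genes 53.9% lay below 0. The stem and progenitor gene Kit was at 34.5 FPKM in the vector library, 30.1 in W791, 23.3 in Q741, 32.6 in T618I, 12.6 in T618I/W791 and 15.1 in T618I/Q741 (-0.36).

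On the mast cell and basophil list, 26 of 35 genes were below 0, the median was -0.14 and 1 gene, Tph1, was lower by 2-fold. Of all genes, 53.9% lay below 0 and 0.67% were lower by 2-fold or more. The mast cell chymase gene Cma1 was at 144 FPKM in the vector library, 110 in W791, 57.9 in Q741, 247 in T618I, 60.9 in T618I/W791 and 96.7 in T618I/Q741 (-0.91). The mast cell tryptase gene Tpsb2 was at 192 FPKM in the vector library, 113 in W791, 64.2 in Q741, 157 in T618I, 25.1 in T618I/W791 and 120 in T618I/Q741 (-0.80). Q741 was the lowest of the libraries without T618I for both. Another tryptase gene, Tpsg1, which is not on the list, was at 18.5 FPKM with W791 and 9.61 with Q741 (-0.87). The mast cell protease genes Mcpt4, at 23.8 and 15.8 FPKM (-0.56), and Mcpt2, at 36.4 and 33.7 (-0.11), differed less. The basophil protease gene Mcpt8 was at 632 FPKM with W791 and 678 with Q741 (0.10), and Prss34 at 371 and 363 (-0.03). The carboxypeptidase gene Cpa3 was at 665 and 557 FPKM (-0.26). Cma1, Tpsb2, Tpsg1, Mcpt4 and Mcpt2 were chosen after their values were seen. Markers of non-blood cells were sparse, with 3 of 16 fibroblast genes measured and a summed level of 3.09 FPKM with W791 and 3.38 with Q741. Endothelial genes, some of which platelets share, summed to 43.8 and 36.2 FPKM.

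**Figure D4:**
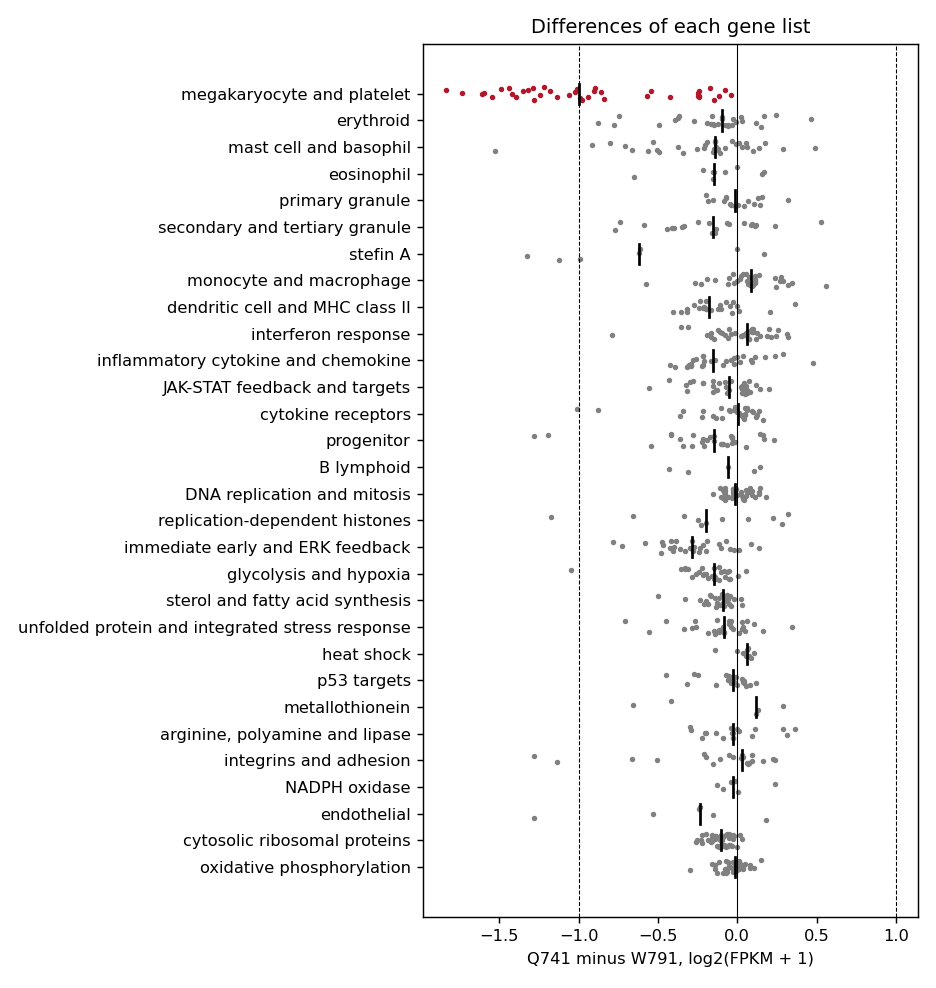
Q741 minus W791 differences on the log2(FPKM + 1) scale for the members of each gene list, 1 point per gene with the list's median marked. The megakaryocyte and platelet list has a median of -1.00 and the stefin A list -0.62 over 7 genes. The stefin A median is the value of Stfa2, at 0.538 FPKM with W791 and listed at 0 with Q741. That list, whose highest member is Cstb at 0.17, summed to 308 FPKM with W791 and 329 with Q741. The medians of the erythroid, monocyte and neutrophil granule lists lie between -0.15 and 0.09.

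Genes of the pathway downstream of the receptor were close to level. JAK-STAT feedback and target genes had 19 of 35 below 0 (53.9% of all genes), none past 2-fold, and a median of -0.05. Socs3, for the inhibitor that docks to the receptor tail, was at 45.3 FPKM in the vector library, 85.7 in W791, 73.8 in Q741, 123 in T618I, 31.6 in T618I/W791 and 156 in T618I/Q741. Its difference was -0.21 between the truncations and 2.27 between the double mutants. Cish, for another feedback inhibitor, was at 9.92 FPKM with W791 and 10.1 with Q741, the kinase gene Pim1 at 170 and 155, and the survival gene Mcl1 at 188 and 195. Both Socs3 and Cish lay above vector, where Cish was at 4.35 FPKM, in both truncation libraries. Cytokine receptor genes had 15 of 30 below 0 and a median of 0.00.

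The list of immediate early genes, the first transcripts made after a growth signal, and of feedback genes of the ERK pathway had 27 of 30 below 0, none past 2-fold and a median of -0.28. For this and the lists below, the share of all genes below 0 was 53.9%, and 0.67% of all genes were lower by 2-fold or more. Egr1 was at 74 FPKM in the vector library, 119 in W791, 84.6 in Q741, 120 in T618I, 46.3 in T618I/W791 and 159 in T618I/Q741 (-0.48). Zfp36, for a protein that promotes mRNA decay, was at 311 FPKM with W791 and 256 with Q741 (-0.28). Fos was at 125 FPKM in the vector library, 160 in W791, 133 in Q741, 170 in T618I, 41.3 in T618I/W791 and 173 in T618I/Q741 (-0.27). For Egr1 and Fos, Q741 lay between vector and W791, and the double mutants differed the other way, with a list median of 1.48. Glycolysis genes had 28 of 30 below 0 with a median of -0.15, and Slc2a3 was the member past 2-fold. Sterol and fatty acid synthesis genes had 27 of 29 below 0 with a median of -0.09, and cytosolic ribosomal protein genes 49 of 51 with -0.10. Interferon response genes had 25 of 40 above 0 and a median of 0.06, and DNA replication and mitosis genes 20 of 38 below 0 and a median of -0.01.

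The 5 higher genes were 3 small RNAs and a pair of genes with near-identical copies. Eif3j2, which encodes a translation initiation factor subunit, was at 25.3 FPKM in the vector library, 1.46 in W791, 21.2 in Q741, 33.2 in T618I, 51.3 in T618I/W791 and 0.374 in T618I/Q741 (3.17). Its copy Eif3j1 was at 32.2 FPKM with W791 and 16 with Q741 (-0.97), and the copies summed to 33.7 and 37.2, a difference of 0.14. The division of reads between them is therefore uncertain. Rnaset2a, which encodes a ribonuclease, was at 6.28 FPKM in the vector library, 0.581 in W791, 8.08 in Q741, 3.69 in T618I, 0.00254 in T618I/W791 and 7.08 in T618I/Q741 (2.52). Summed with its copy Rnaset2b it was at 3.89 FPKM with W791 and 11.2 with Q741, a difference of 1.32 that is still past 2-fold. The small RNAs were Snora68, Snora81 and Scarna6, and of 20 small RNAs measured 14 differed by 2-fold or more in either direction, against 0.715% of all genes. An exact 0 for such a short RNA can be a failed estimate, so no fold is given for a small RNA listed at 0 in either library.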

How the data were processed

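RNA-seq libraries (stranded mRNA, total RNA, per the labels' protocols) were quantified by the authors. The deposited values were read as FPKM, although the table header names no unit. The submitters' processing notes name TopHat, Cufflinks and build mm10. Tool roles, versions, annotation and strand setting were not given in the sources used here. Double-mutant columns were matched to titles by their letters. Rows whose symbol had become a date (27) were left out, and 23417 remained. No further scaling was applied, and 11188 genes passed the filter of 1 FPKM in 2 libraries. Symbols matched GENCODE M21 for 95.0% of these genes, which gave coordinates. Overlaps were taken from RefSeq genes, where some symbols, such as Gucy1b3 and Sdpr, had no match. Depth was estimated from whole-fragment steps in single-transcript genes, and counts of fragments are approximate. Python 3.11.15, numpy 2.4.6 and pandas 2.3.3 were used. Calls use a 2-fold threshold and no test, and counting was tested on simulated data. Alternatives were another pseudocount, filter, scaling and threshold.

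The members, the 33 gene lists and the naming rule were chosen with earlier results of these data known. The rule names the 15 highest and 15 lowest genes past 2-fold with 5 FPKM or more in the higher library, leaving out predicted genes and small RNAs. It also names list members past 2-fold, Csf3r, and up to 4 abundant members of a list with few or no such members. Other genes named were chosen after their values were seen. Promoters came from the RefSeq table of GRCm38.p6, which held 26 of the 40 platelet genes. 1 gene of the platelet list is counted in the totals and is not reported here.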

Additional observations from a re-analysis of the deposited data

Results flagged for a closer look

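The truncations differed by 2-fold or more in opposite directions without and with T618I at 8 of 11188 genes, of which the 4 named by rule follow. The rest include a pseudogene, Mcpt-ps1, and small RNAs listed at 0 with Q741, such as Snora75 and Scarna13. The difference between the pairs was not tested. Gp9, a chain of the von Willebrand factor receptor, differed by -1.55 (Q741 minus W791, log2 scale) without T618I and by 1.04 with it (T618I/Q741 minus T618I/W791). Syt13, of the synaptotagmin family, differed by -1.47 and 1.08, and Tubb1, the platelet tubulin gene, by -1.28 and 1.03. Eif3j2, which has a near-identical copy, differed by 3.17 and -5.25.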

How the results depend on the processing

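No paired analysis was possible because each construct had 1 library. The count of 75 lower genes was 165 with a pseudocount of 0.1 and 25 with a pseudocount of 5, 192 at a 1.5-fold and 17 at a 3-fold threshold. The count of 5 higher genes was 11 with a pseudocount of 0.1, 9 without a filter and 12 at a 1.5-fold threshold. The 20 lower platelet genes were 10 with a pseudocount of 5 and 4 at a 3-fold threshold. Under median-ratio and upper-quartile scaling 73 and 74 genes were lower, and 19 platelet genes under each. Of 36 genes past 2-fold under the naming rule, 19 were under 2-fold with a pseudocount of 5 and 1 under each scaling, and none changed direction under these, a pseudocount of 0.1 or no filter. Other named genes were not recomputed. With 1 library per construct, no difference can be set against replicate spread, and depth limits genes of low level most.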
